A study of Mus musculus with 4 samples.

Results

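SF3b is a protein complex of the U2 small nuclear ribonucleoprotein, the particle that recognises the intron branch site during pre-mRNA splicing. Its 7 subunit genes, Sf3b1, Sf3b2, Sf3b3, Sf3b4, Sf3b5, Sf3b6 and Phf5a, were followed here in mouse bone marrow LSK cells. LSK cells are the lineage-negative, Sca-1-positive, c-Kit-positive fraction that contains hematopoietic stem cells and multipotent progenitors. The members were taken as all non-control probes whose RefSeq transcript belongs to 1 of these genes. That rule found 8 of 55681 distinct probes, 2 for Sf3b4 and 1 for each other subunit, and 7 of 20887 genes with a symbol. Each probe was printed as 1 spot an array.

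The study set mice with 1 functional copy of Sf3b1 (Sf3b1+/-) beside wild-type mice, all C57BL/6, in native and in transplanted cells. Native LSK cells came from animals aged 20 weeks. Transplanted LSK cells were donor-derived CD45.2+ cells of either genotype, sorted 9 months after whole marrow from those mice went into lethally irradiated CD45.1+ hosts, a setting the study added against indirect effects of the marrow environment. The hosts' own Sf3b1 genotype was not stated. The 4 groups were Sf3b1+/- native, wild-type native, Sf3b1+/- transplanted and wild-type transplanted, with 1 array each. The design text gives 4 mice for the native and 5 recipients for the transplanted collection, without saying how many were pooled for an array. With 1 array a group, differences within a setting carry no p-value.

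In SF3b, as known mostly from the human and yeast complexes, the SF3B1 protein forms a curved scaffold that closes around the branch site. SF3B3 is the other large scaffold, SF3B2 bridges towards SF3a, and SF3B4 is an RNA-binding partner of SF3B2. PHF5A helps SF3B1 form the branch-site pocket, SF3B5 is a small protein between the scaffolds, and SF3B6 is another small subunit. The complex also sits in the U11/U12 particle of the minor spliceosome, and SF3B3 and SF3B5 belong as well to SAGA, a coactivator that acetylates histones. Human SF3B1 is recurrently mutated in myelodysplastic syndromes.

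The promoters of 4 of the 7 genes were matched in the RefSeq table of the mouse assembly GRCm38.p6. The 150 bases before the first transcription start listed there are shown. The Sf3b1 and Sf3b3 windows overlap the first bases of the annotated genes, which reach chr1:55027501 and chr8:110846806. Sf3b4, Sf3b5 and Phf5a had no match, so the windows were not chosen by the differences described below. Sf3b1 is the targeted gene, Sf3b2 and Sf3b3 had higher signal in Sf3b1+/- cells of both settings, and Sf3b6 had lower signal. Capitals mark CCGGAAG, the core motif of ETS factors, or its reverse complement CTTCCGG. The windows are chr1:55027479-55027628 (minus strand) for Sf3b1, chr19:5295458-5295607 (minus strand) for Sf3b2, chr8:110846804-110846953 (minus strand) for Sf3b3 and chr12:4817458-4817607 (plus strand) for Sf3b6.
Sf3b1: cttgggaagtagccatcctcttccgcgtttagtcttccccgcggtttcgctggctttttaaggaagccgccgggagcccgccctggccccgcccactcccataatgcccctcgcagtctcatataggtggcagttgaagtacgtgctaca
Sf3b2: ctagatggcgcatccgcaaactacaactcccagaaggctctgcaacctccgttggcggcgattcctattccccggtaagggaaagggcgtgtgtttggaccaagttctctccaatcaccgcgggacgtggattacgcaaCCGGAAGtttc
Sf3b3: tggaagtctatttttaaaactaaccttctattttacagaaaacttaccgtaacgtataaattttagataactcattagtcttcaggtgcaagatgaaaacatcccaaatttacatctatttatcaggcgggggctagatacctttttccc
Sf3b6: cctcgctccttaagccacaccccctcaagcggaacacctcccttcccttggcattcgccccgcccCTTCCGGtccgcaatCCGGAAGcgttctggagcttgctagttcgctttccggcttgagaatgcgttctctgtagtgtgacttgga

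The ETS core was found in 2 of the 4 windows, at position -11 of Sf3b2 and at -85 and -70 of Sf3b6, counted from the transcription start to the first base of the match. Over 32851 promoter windows of the same length 5.52% held it. Other motifs were searched on both strands too. The Sp1 box GGGCGG was in the Sf3b1 and Sf3b6 windows and in 28.6% of all windows. The CCAAT box, searched as those letters, was in the Sf3b2 window and in 24.5% of all. The E-box CACGTG (4.3% of all windows), the YY1 core AAGATGG (2.54%) and the NRF1 core (0.645%) were in none of the 4. The Sp1 box of Sf3b6 began at -91 and ended at the base before an ETS core. The Sf3b3 window held none of the motifs searched.

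All 8 SF3b probes were well above background on all 4 arrays by the scanner software's call, none was saturated and none was an outlier spot. Levels are processed spot signals in scanner units, and scaled levels are log2 signals relative to the 75th percentile of the probes detected on every array. Over all non-control spots, 47.7% to 51.5% were well above background, and the 75th percentile of detected probes was 1652 to 2686 units before scaling, highest on the Sf3b1+/- transplanted array. Differences are log2 differences of scaled levels, Sf3b1+/- minus wild type or transplanted minus native. The value after ± is the error that the scanner software gives for the spots, about 10% of a signal. It holds no biological spread. The spread of replicate spots of 1 probe within each array corresponds to an SD of 0.155 for a log2 difference. That value leaves out spread from labelling, hybridization and array to array. The LSK identity was checked on 7 markers, Kit, Ly6a, Cd34, Flt3, Ptprc, Procr and Slamf1, and all 7 were well above background on all 4 arrays. Of markers of mature cells, Cd8a was well above background on no array, Ms4a1 on 1, Cd79a on 2 and Cd3g and Adgre1 on 3. Cd3e, Itgam and Hba-a1 were above it on all 4 arrays, and Ly6g and Hbb-b1 had no matched probe.

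Sf3b1 encodes the scaffold that holds the branch site, and it is the gene whose copy number the design changes. Its probe (NM_031179) gave 320.0 units in Sf3b1+/- native cells, against 361.5 in wild-type native cells. In transplanted cells it gave 341.4 units in Sf3b1+/- and 249.7 in wild type. After scaling, native Sf3b1+/- cells had 75.4% of the wild-type level, a difference of -0.41 ± 0.21. Transplanted Sf3b1+/- cells had 92.8% of it, a difference of -0.11 ± 0.21. The first of these was 1.99 times its scanner error and the second 0.522 times. Both were under 1.5-fold. Scaled to the RNA spike-ins the transplanted difference was 0.48, a turned direction, in a comparison where the median of all compared probes also moved to 0.60. The deleted stretch of the gene is not described in the labels, so whether the probe reads the lost allele was not tested.

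The 4 Sf3b1 levels were ordered by setting. The highest scaled level was in wild-type native cells (-2.19), then came native Sf3b1+/- cells (-2.60), transplanted wild-type cells (-2.87) and, lowest, the transplanted Sf3b1+/- array (-2.98). Only the last step, between the 2 transplanted groups, was smaller than its scanner error. Transplanted minus native, Sf3b1 stood at -0.38 ± 0.21 in Sf3b1+/- cells and at -0.68 ± 0.21 in wild-type cells, where it was 1.60-fold lower. The wild-type difference with transplantation was thus larger than the native difference with genotype. Scaled to the spike-ins they stood at 0.41 in Sf3b1+/- and -0.26 in wild-type cells, against a median of all compared probes of 0.81 and 0.43.

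**Figure D1:**
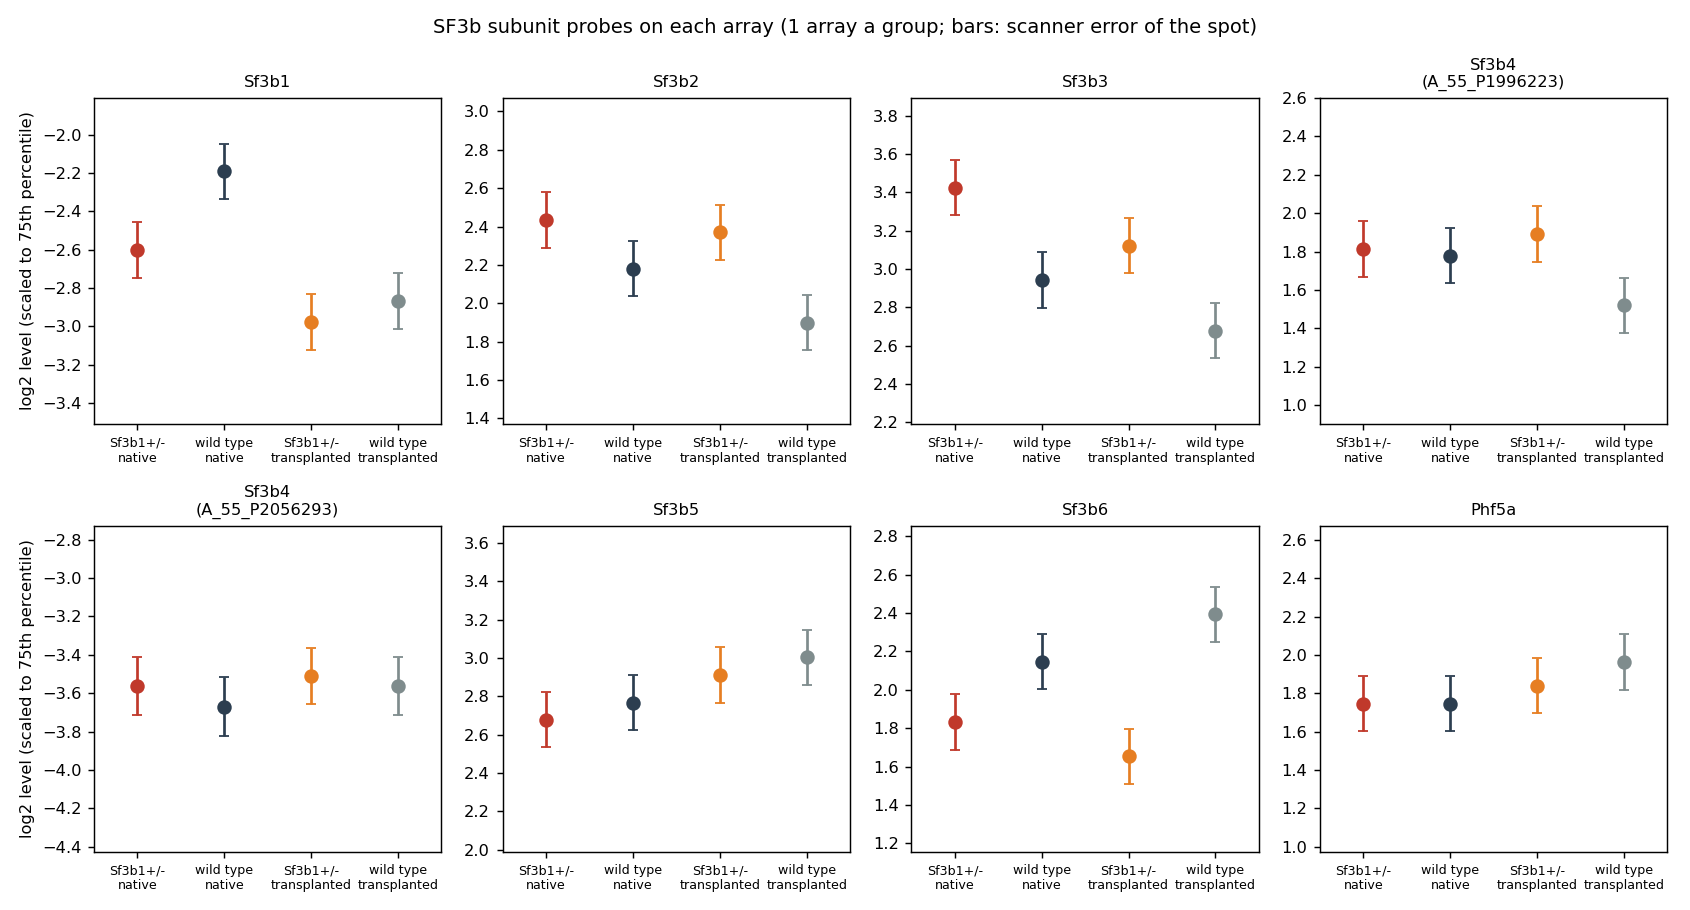
Scaled log2 level of each SF3b probe on the 4 arrays, with the scanner error of the spot as the bar, 1 array a group. Each panel spans the same log2 range; Sf3b3 lay between 2.68 and 3.42 with both Sf3b1+/- arrays highest, Sf3b6 between 1.65 and 2.39 with both Sf3b1+/- arrays lowest, and Phf5a between 1.75 and 1.96.

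Sf3b3 and Sf3b2, the other scaffold and the bridging subunit, had higher signal in Sf3b1+/- cells of both settings. Sf3b3 (NM_133953) read 20827 units in Sf3b1+/- and 12697 in wild-type native cells, and 23386 in Sf3b1+/- and 11679 in wild-type transplanted cells. Both Sf3b1+/- arrays were above both wild-type arrays. Native Sf3b1+/- cells had 140% of the wild-type level and transplanted ones 136%, as differences of 0.48 ± 0.20 and 0.44 ± 0.20. Among all 17067 compared probes the native difference lay at percentile 94.7, and among the 1707 brightest of them, a class set after seeing the data, at percentile 99.8. In transplanted cells these percentiles were 86.5 and 97.3.

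Sf3b2 (NM_030109) read 10487 units in Sf3b1+/- and 7489 in wild-type native cells. In transplanted cells it read 13884 units in Sf3b1+/- and 6799 in wild type. The groups did not overlap by genotype after scaling either, with 2.43 and 2.37 in Sf3b1+/- against 2.18 and 1.90 in wild type. It differed by 0.25 ± 0.20 in native cells, at percentile 84.4 of all compared probes and 98.1 of the 1707 brightest. It differed by 0.47 ± 0.20 in transplanted cells, at percentiles 87.8 and 97.5. Among those 1707 the median probe lay lower in Sf3b1+/- cells, at -0.10 in native and -0.15 in transplanted cells.

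Sf3b4, the RNA-binding partner of Sf3b2, was read by 2 probes of the same transcript (NM_153053), and they gave different pictures. The probe A_55_P1996223 read 6819 units in Sf3b1+/- and 5665 in wild-type native cells, and 9966 in Sf3b1+/- and 5229 in wild-type transplanted cells. Its differences were 0.04 ± 0.20 in native and 0.37 ± 0.20 in transplanted cells. The probe A_55_P2056293 read 164.2 units in Sf3b1+/- and 129.7 in wild-type native cells, and 235.7 in Sf3b1+/- and 154.4 in wild-type transplanted cells. That probe differed by 0.11 ± 0.22 in native and 0.05 ± 0.21 in transplanted cells, both within the scanner error. Between the probes the transplanted differences were 0.32 ± 0.29 apart, a gap just past the scanner error. A Sf3b4 difference in transplanted cells therefore rested on 1 of its 2 probes.

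**Figure D2:**
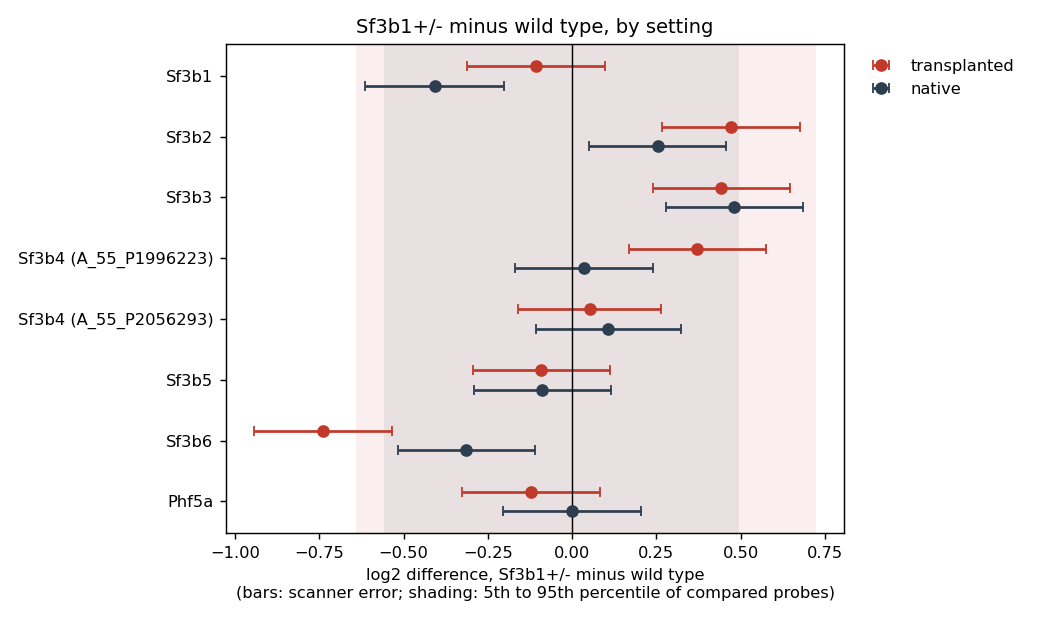
Log2 difference, Sf3b1+/- minus wild type, of each SF3b probe in transplanted and in native cells; bars are scanner errors and shading is the 5th to 95th percentile of all compared probes in that setting (-0.64 to 0.72 transplanted, -0.56 to 0.49 native). The transplanted Sf3b6 point at -0.74 is the only one outside its shading, and with spike-in scaling all points shift to the right.

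Sf3b6, a small subunit, was lower in Sf3b1+/- cells of both settings. It had the widest difference of the 8 probes in transplanted cells but not in native ones, where Sf3b3 and Sf3b1 differed more. With spike-in scaling its difference was the smallest of the 8 in either setting. Its probe (NM_025323) read 6909 units in Sf3b1+/- and 7310 in wild-type native cells. In transplanted cells it read 8444 units in Sf3b1+/- and 9576 in wild type. Scaled, both Sf3b1+/- arrays were below both wild-type arrays, at 1.83 and 1.65 against 2.15 and 2.39. Native Sf3b1+/- cells had 80.5% of the wild-type level (-0.31 ± 0.20), and transplanted ones had 59.9% of it (-0.74 ± 0.20). That 1.67-fold transplanted difference was 3.63 times its scanner error and lay at percentile 3.45 of all compared probes and at 0.937 of the 1707 brightest. With spike-in scaling it kept its sign at -0.15, and the native one at -0.10, both within the scanner error of 0.20. The genotypes then overlapped, with the transplanted Sf3b1+/- array above the native wild-type one. They also overlapped in units before scaling, at 8444 in transplanted Sf3b1+/- against 7310 in native wild-type cells.

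In the same transplanted comparison 3 of the 7 LSK markers were at least 1.5-fold higher in Sf3b1+/- cells and none was 1.5-fold lower. Slamf1 stood at 1.34, Procr at 0.84 and Ly6a at 0.60, whereas in native cells none of the 7 was 1.5-fold apart. The summed scaled level of the 7 was 30.4 in Sf3b1+/- and 32.3 in wild-type transplanted cells, and 44.4 in Sf3b1+/- and 45.3 in wild-type native cells. Of the other cell types' markers above background on all 4 arrays, Hba-a1, an erythroid globin, differed between genotypes by 1.28 in transplanted and 0.75 in native cells. Cd3e of T cells differed by -0.42 in transplanted and -0.39 in native cells, and Itgam of myeloid cells by -0.42 and 0.01. The summed scaled level was 0.115 in Sf3b1+/- and 0.0473 in wild-type transplanted cells for the erythroid markers, 0.215 and 0.302 for T cells, 5.08 and 6.80 for neutrophils and macrophages, and 0.0177 and 0.0132 for B cells. In native cells it was 0.0522 in Sf3b1+/- and 0.0311 in wild type for the erythroid markers, 0.240 and 0.317 for T cells, 7.01 and 6.97 for neutrophils and macrophages, and 0.0308 and 0.0461 for B cells. The erythroid sum was Hba-a1 alone. The LSK sum was mostly Cd34, the T cell sum mostly Cd3e and the neutrophil and macrophage sum nearly all Itgam. The B cell probes read only 9.14 to 54.5 units and were well above background on at most 2 arrays. The part of these markers in the SF3b differences was not tested. In RNA from a sorted mixture, fewer cells of a type and less RNA per cell cannot be told apart.

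Sf3b5 and Phf5a, the other small subunits, differed by less than their scanner error between genotypes. Sf3b5 (NM_175102) read 12415 units in Sf3b1+/- and 11237 in wild-type native cells, and 20205 in Sf3b1+/- and 14616 in wild-type transplanted cells. Its scaled differences were -0.09 ± 0.20 in both settings. Phf5a (NM_026737) read 6512 units in Sf3b1+/- and 5545 in wild-type native cells, and 9621 in Sf3b1+/- and 7109 in wild-type transplanted cells. Its scaled differences were -0.00 ± 0.20 in native and -0.12 ± 0.20 in transplanted cells. Over the 4 arrays Phf5a spanned 1.16-fold, against a median span of 1.43-fold over all compared probes. Sf3b1, Sf3b3 and Sf3b6 spanned 1.72-fold, 1.68-fold and 1.67-fold. With spike-in scaling the Sf3b5 and Phf5a differences turned positive in both settings, at 0.13 and 0.50 for Sf3b5 and 0.21 and 0.47 for Phf5a, all below the median of all compared probes.

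Counted together, 0 of 8 probes were at least 1.5-fold apart between genotypes in native cells, where 8.21% of all compared probes were. In transplanted cells 1 of 8 was, Sf3b6, against 14.7% of all. At least 1.5-fold in the same direction under both settings were 0 of 8, against 1.12% of all probes on the higher and 1.43% on the lower side. With 8 probes these counts do not set the complex apart from the background. The 8 probes had a median difference of 0.02 in native and -0.02 in transplanted cells, against 0.00 for all compared probes in either. All 8 had the same sign in both settings, as 67.1% of all compared probes did, although Phf5a, Sf3b5 and the dimmer Sf3b4 probe were within the scanner error in both. The count depends on the processing. The native Phf5a difference, at -0.00036, turned positive in 4 of the 9 processing alternatives. With spike-in scaling Sf3b1 stood at -0.19 in native and 0.48 in transplanted cells. The Sf3b1+/- and wild-type arrays did not overlap for 4 of the 8, Sf3b2, Sf3b3, the brighter Sf3b4 probe and Sf3b6, against 35.8% of all compared probes. The share of probes at least 1.5-fold higher and lower was 3.59% and 4.62% in native and 8.19% and 6.51% in transplanted cells. With spike-in scaling it became 8.62% and 2.34%, and 51.0% and 0.768%. Quantile normalization gave 9.84% and 4.73% in transplanted cells.

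Genotype was tested over both settings with limma, an additive model with setting as the second term and 1 residual degree of freedom a probe. It called 0 of 17067 probes (0%) at a Benjamini-Hochberg adjusted p under 0.05, and 2249 (13.2%) at an unadjusted p under 0.05, with Sf3b3 and Sf3b6 among them. Sf3b3 had a mean difference of 0.46 ± 0.13 (SE) with an adjusted p of 0.364 from limma, and was higher in Sf3b1+/- in 2 of 2 settings. Its adjusted p ranged from 0.0861 to 0.393 over the processing alternatives. Sf3b6 had -0.53 ± 0.16 with an adjusted p of 0.377 from limma, lower in 2 of 2 settings, with a range of 0.237 to 0.776. Sf3b2 stood at 0.36 ± 0.14 (adjusted p 0.378, limma) and Sf3b1 at -0.26 ± 0.15 (adjusted p 0.451, limma). The other 4 probes had adjusted p-values of 0.534 to 0.826. With 1 array a group, the residual of this fit is the genotype-by-setting contrast, joined with a prior drawn from all compared probes. These p-values therefore set the mean genotype difference against its inconsistency between settings. They measure no spread between replicate arrays or animals, and nothing says that the arrays came from separate animals. The same residual serves the setting test below.

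The balance between subunits can be read within each array, where any constant scaling cancels, the spike-in scaling included. A ratio of 2 probes has no meaning as an amount, but its change between arrays does not depend on the probes' brightness scale. The Sf3b3 to Sf3b6 log2 ratio was 1.59 on the Sf3b1+/- and 0.80 on the wild-type native array, and 1.47 on the Sf3b1+/- and 0.29 on the wild-type transplanted array. It was therefore 1.74-fold higher in native and 2.27-fold higher in transplanted Sf3b1+/- cells, changes of 0.80 ± 0.29 and 1.18 ± 0.29. The Sf3b2 to Sf3b6 ratio was 1.48-fold and 2.32-fold higher. The Sf3b3 to Sf3b1 ratio was 1.85-fold and 1.46-fold higher.

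Of 27 pairs of SF3b probes of different genes, which share 8 probes and the same 4 arrays, 23 had a ratio shifted in the same direction in both settings, against 64.5% of all pairs of compared probes. At least 1.5-fold in both settings was 1 of the 27, Sf3b3 to Sf3b6, against 6.66% of all pairs, so that count does not set SF3b apart. With quantile normalization it was 3 of 27, with Sf3b2 and Sf3b3 over Sf3b1 added, and before detrending 2, with Sf3b2 over Sf3b6 added. The Sf3b3 to Sf3b6 ratio changed by 0.80 to 0.87 in native and 1.18 to 1.20 in transplanted cells over the 9 processing alternatives and the reported setting. Only quantile normalization, normexp background correction and the signal before detrending could alter these values. The other alternatives shift a whole array or only choose probes. The 2 members of this ratio were singled out after their values were seen, so no test is attached.

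**Figure D3:**
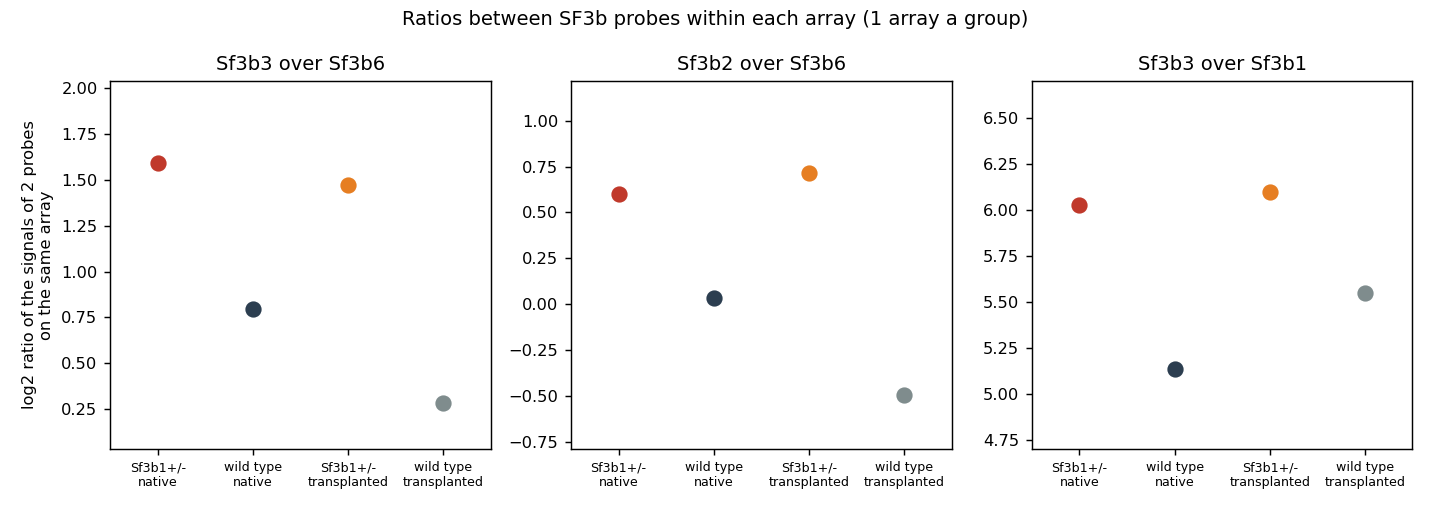
Log2 ratio of the signals of 2 SF3b probes on the same array, for Sf3b3 over Sf3b6, Sf3b2 over Sf3b6 and Sf3b3 over Sf3b1, 1 array a group. In each panel both Sf3b1+/- arrays lie above both wild-type arrays; the Sf3b3 over Sf3b6 ratio was 1.59 and 1.47 in Sf3b1+/- against 0.80 and 0.29 in wild-type cells.

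In wild-type cells the mRNA signals of the larger and the smaller SF3b subunits differed in opposite directions with transplantation, apart from 1 probe and not with spike-in scaling. Transplanted minus native, Sf3b1 (-0.68), Sf3b2 (-0.28), Sf3b3 (-0.26) and the brighter Sf3b4 probe (-0.26) were lower, while Sf3b5 (0.24), Sf3b6 (0.25) and Phf5a (0.22) were higher, each with a scanner error of 0.20 or 0.21. The dimmer Sf3b4 probe, at 0.11 ± 0.22, went with the small subunits in sign. In Sf3b1+/- cells the split was less clear. Sf3b1 (-0.38) and Sf3b3 (-0.30) were lower and Sf3b5 (0.23) was higher by more than the scanner error, and the remaining 5 probes lay between -0.18 and 0.09. The median of the 8 probes was -0.01 in Sf3b1+/- and -0.08 in wild-type cells, against 0.02 for all compared probes in either. This grouping by size was made after the values were seen and was not tested, and with spike-in scaling 7 of the 8 wild-type differences were positive.

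For setting, 0 of 8 probes were at least 1.5-fold apart with transplantation in Sf3b1+/- cells (19.2% of all compared probes) and 1 of 8, Sf3b1, in wild-type cells (14.2%). Transplanted and native arrays did not overlap for 4 of 8 probes, against 51.8% of all. Sf3b1 was lower in transplanted cells, and the dimmer Sf3b4 probe, Sf3b5 and Phf5a were higher. For the dimmer Sf3b4 probe the gap between the settings was only 0.00011, against a scanner error of 0.21. Tested with limma over both genotypes, setting was called for 69 probes (0.404%) at an adjusted p under 0.05 and for none of the SF3b probes. At an unadjusted p under 0.05 it was 4335 (25.4%), with Sf3b1 the 1 SF3b probe among them. Sf3b1 had the lowest adjusted p of the 8 in that test, 0.152 from limma, at -0.53 ± 0.15 and lower in 2 of 2 genotypes, and over the alternatives its adjusted p ranged from 0.0461 with normexp background correction to 0.832 with spike-in scaling. Markers differed in the same comparison, and their part in it was not tested. Transplanted minus native, Slamf1 stood at 2.57 in Sf3b1+/- and 1.32 in wild-type cells, Flt3 at -1.20 and -0.61, Cd34 at -0.70 and -0.54, Procr at 1.28 and 0.20, and Hba-a1 at 1.13 and 0.60. The genotype and setting comparisons share the same 4 arrays. In wild-type cells the share of probes at least 1.5-fold higher and lower was 8.57% and 5.68%, and it became 7.03% and 7.53% with the 75th percentile over all probes, 7.11% and 7.37% with quantile normalization and 34.4% and 1.58% with spike-in scaling. In Sf3b1+/- cells it was 12% and 7.15%, and 71.5% and 0.691% with spike-in scaling.

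**Figure D4:**
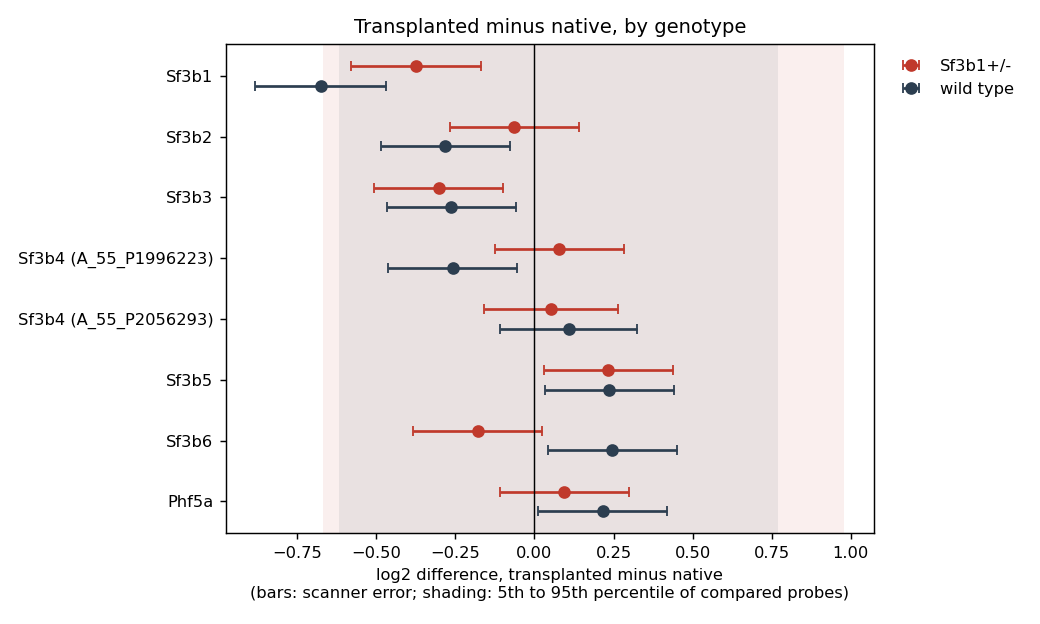
Log2 difference, transplanted minus native, of each SF3b probe in Sf3b1+/- and wild-type cells, with scanner errors as bars and the 5th to 95th percentile of all compared probes as shading. In wild-type cells Sf3b1 lies at -0.68 and Sf3b5, Sf3b6 and Phf5a between 0.22 and 0.25; with spike-in scaling every point but Sf3b1 in wild type is positive.

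The complexes that SF3b works with were described from 3 gene lists. Of 26 other U2 proteins and U2 recruitment factors 25 were compared, and Ddx46 had no matched probe. Of these genes 0 were at least 1.5-fold apart between genotypes in native and 1 in transplanted cells, lower in Sf3b1+/-, against 3.27% higher and 4.71% lower, and 7.79% higher and 6.43% lower, among all 13039 compared genes. Their medians were -0.03 and -0.11. The highest mean differences were in Htatsf1, a U2-associated splicing factor (0.35 and 0.52 in native and transplanted cells), and U2af2, the large subunit of the factor that binds the polypyrimidine tract (0.16 and 0.58). The lowest were in Snrpe, an Sm core protein shared by spliceosomal particles (-0.28 and -0.64), and Smndc1 (-0.40 and -0.38). Snrpe signal was 30905 units in Sf3b1+/- and 32016 in wild-type native cells, and 42167 in Sf3b1+/- and 44619 in wild-type transplanted cells. Snrpe was the 1 gene past 1.5-fold, at 1.56-fold lower in transplanted cells.

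Of the U11/U12 particle all 9 listed genes were compared, and 0 were 1.5-fold apart in either setting, with medians of -0.02 and 0.04. Snrnp48 (0.10 and 0.43) and Zrsr2 (0.32 and 0.04) had the highest mean differences, and Rnpc3, which binds the U12 RNA (-0.02 and -0.58), and Snrnp25 (-0.13 and -0.35) the lowest. Of the 19 SAGA genes 17 were compared, with medians of 0.05 and 0.22. None was 1.5-fold apart in native cells. In transplanted cells 2 (11.8%) were at least 1.5-fold higher in Sf3b1+/-, against 7.79% of all compared genes. These were Taf6l and Atxn7l3, the latter at -0.17 in native and 0.71 in transplanted cells. Taf6l (0.26 and 0.61) and Tada3 (0.28 and 0.35) had the highest and Eny2 (-0.12 and -0.58) and Taf9 (-0.29 and -0.22) the lowest mean differences. No gene of the 3 lists passed 1.5-fold in both native and transplanted cells.

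**Figure D5:**
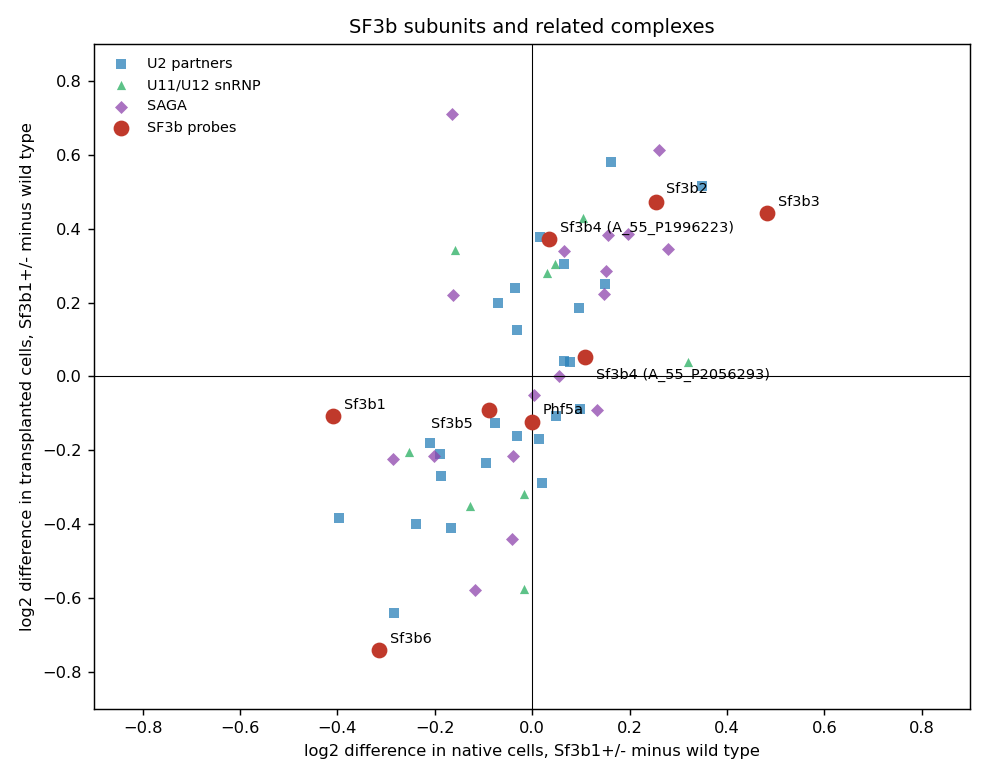
Log2 difference, Sf3b1+/- minus wild type, in native (horizontal) against transplanted cells (vertical) for the 8 SF3b probes and 51 genes of 3 related complexes, 1 probe a gene. Sf3b3 lies farthest to the right at 0.48 and Sf3b6 lowest at -0.74, and with spike-in scaling all points move up and to the right.

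The probes with the most similar pattern over the 4 arrays were sought among 15831 probes detected on all of them, by the root mean square gap of log2 levels centred on their mean. The nearest to Sf3b1 were Ube2d-ps (0.0246), Mtss1 (0.0313) and Camk2a (0.0365), those to Sf3b3 were Dnmt3b (0.0218), Mrtfa (0.0249) and Apobr (0.0310), and those to Sf3b6 were Olfr1402 (0.0153), Lsm5 (0.0170) and P2rx2 (0.0237). With only 4 arrays such patterns recur often. Within a gap of 0.1 there were 88 probes for Sf3b1, 186 for Sf3b3 and 261 for Sf3b6.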

How the data were processed

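Total RNA (20 ng) was amplified and labelled with Cy3 together with RNA spike-ins, per the labels' protocols. Each array's deposited scanner file gives spot intensity values made with Agilent Feature Extraction 10.7.1.1 (design 028005, protocol GE1_107_Sep09, probe positions on mm9), background-subtracted and detrended within the array by the software, per the file headers. The deposited values of the whole series are ratio values, which from the values themselves follow each array's processed signal divided by a constant. All arrays lay on 1 slide and were read in 1 scan.

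Probes were named by RefSeq accession through GRCm38.p6 names (27509 of 55681 matched 1 symbol). Replicate spots were averaged on the log2 scale without outlier spots, and each array was shifted by its 75th percentile over probes well above background on all 4 arrays, since the mean share of detected spots was 49.5%. Named probes detected on at least 2 arrays (17067) were compared. For the 3 gene lists the brightest probe stood for its gene.

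The additive fit of genotype and setting used limma 3.58.1 (R 4.3.3, data-table reader fread, version 1.17.8), two-sided, Benjamini-Hochberg adjusted, with a prior of 3.09 degrees of freedom. Tested on simulated data for the genotype term over 17067 probes, the share of changed probes called after adjustment was 0% at 2-fold and 86% at 4-fold. The number of arrays, 1 a group, limits the precision. The members and lists were chosen with earlier results of these data known. Named were all member probes, and for each list the 2 genes with the highest and the 2 with the lowest mean genotype difference (none was 1.5-fold apart in both settings). Also named were list genes past 1.5-fold in transplanted cells and the 3 most similar probes of Sf3b1, Sf3b3 and Sf3b6. Sf3b4 probes A_55_P1996223 and A_55_P2056293 are called the brighter and the dimmer one. Some marker genes are not reported here.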

Additional observations from a re-analysis of the deposited data

Results flagged for a closer look

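For 2 probes the difference between transplanted and native cells had opposite signs in the 2 genotypes. For Sf3b6 it was -0.18 in Sf3b1+/- and 0.25 in wild-type cells, so the Sf3b1+/- value minus the wild-type value was -0.43, with a scanner error of 0.29. For the Sf3b4 probe A_55_P1996223 it was 0.08 in Sf3b1+/- and -0.26 in wild-type cells, a contrast of 0.34 with the same scanner error, while the other Sf3b4 probe had 0.05 in Sf3b1+/- and 0.11 in wild-type cells. The signs depend on the scaling. For that Sf3b4 probe the Sf3b1+/- value was -0.01 with quantile normalization and -0.04 with normexp, the same sign as in wild type. With spike-in scaling both probes were positive in both genotypes, Sf3b6 at 0.61 in Sf3b1+/- and 0.66 in wild type and the Sf3b4 probe at 0.87 and 0.16. With 1 array a group these contrasts were not tested.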

How the results depend on the processing

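Over 9 alternatives, 252 recomputed SF3b differences moved by less than the replicate-spot SD and 32 by more. Of the 252, 32 with the filter on all 4 arrays, 32 with no filter and 28 with 1 probe a gene could not move. Those settings only choose probes. The 32 that moved by more all came from the spike-in scaling, which shifts every probe of an array alike. It gave SF3b medians of 0.23 (native) and 0.57 (transplanted) for genotype, and 0.78 (Sf3b1+/-) and 0.34 (wild type) for transplanted minus native, with 1, 4, 6 and 3 of 8 probes at least 1.5-fold apart. List medians under it were 0.18 and 0.48 (U2), 0.20 and 0.63 (U11/U12) and 0.27 and 0.81 (SAGA) in native and transplanted cells. Its fit, which took an infinite prior degree of freedom, called 640 of 17067 probes for genotype, none of them SF3b. For setting it called 6829 of 17067. Of the 8 SF3b probes 2 were among them, Sf3b5 (adjusted p 0.0246, limma) and Phf5a (0.0405). With so many probes called, 2 of 8 does not set SF3b apart. At least 1.5-fold higher and lower were then 1472 and 400 probes in native, 8697 and 131 in transplanted, 12200 and 118 in Sf3b1+/- and 5876 and 269 in wild-type comparisons.

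Quantile normalization put 1 of 8 probes, Sf3b3 (0.60), past 1.5-fold in native cells. Of all compared probes 4.38% were then that much higher and 3.94% lower, so this count does not set SF3b apart. With 1 probe a gene the wild-type median for transplanted minus native was -0.26, against -0.08 as reported, since the dimmer Sf3b4 probe is then left out. Without a filter on dim probes the transplanted SAGA median was 0.00099, and 27509 probes were compared in place of 17067. The 1.5-fold counts were then 1576 (5.73%) and 2242 (8.15%) in native and 2514 (9.14%) and 2782 (10.1%) in transplanted cells. The median of all probes was -0.10 and -0.14. With normexp the counts, of 17067, were 67 and 185, 654 and 272, 958 and 629, and 455 and 444 in the order above. As reported they were 613 and 789, 1397 and 1111, 2052 and 1221, and 1462 and 970. Filtering on all 4 arrays left 312 and 525 of 15831 (1.97% and 3.32%) in native cells, against 3.59% and 4.62% as reported.

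Setting calls were 69 as reported, 13 with the percentile over all probes, 12 before detrending, 278 with the filter on all 4 arrays, 1539 with normexp (1 of them SF3b, Sf3b1), and 0 with quantile normalization, the series table or no filter. Outside the spike-in scaling every alternative called 0 probes for genotype. The causes were not tested. Normexp used median in place of mean spot signal, which was not used here. It and the signal before detrending were chosen after seeing the data. No paired analysis was possible because replicate numbers pair nothing at 1 array a group, beyond the setting term already in the additive fit, and leaving out an array leaves the additive model no residual degree of freedom. Precision is limited by array number, since every SF3b signal was above background.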
